A study of Mus musculus with 12 samples.

Results

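T follicular helper (TFH) cells from the spleens of mice with an Ets1 deletion driven by CD4-cre were compared with TFH cells of mice that carried the floxed gene without Cre. A gene entered the comparison if it stood at 1 FPKM (sequenced fragments of a gene, corrected for transcript length and library depth) or more in at least 3 of the 6 TFH libraries. This kept 10556 of the 23563 genes with a value in the series. Unnamed loci and entries with a failed estimate were left out.

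All mice were on the C57BL/6 background and all carried homozygous floxed Ets1 alleles (Ets1 flox/flox). Those with no Cre are called WT here, and those that also carried CD4-cre are called KO, as labelled. TFH cells had been sorted as CD4+ CXCR5+ PD-1+ cells and the non-TFH cells as CD4+ CXCR5- PD-1- cells, which gave 4 groups of 3 libraries, 12 in all. CD4-cre acts from the thymus onwards and is not confined to TFH cells, so its target includes regulatory and CD8 T cells as well. The WT mice had no Cre, so an effect of Cre itself cannot be told apart from the deletion. The labels used here give neither age nor sex. Nor do they tie each replicate to a mouse of its own, so the p-values here rest on the spread among these libraries, part of which may be technical.

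ETS1 is a transcription factor of lymphocytes that binds DNA at a GGAA core through the domain shared by the ETS family. TFH cells move into B cell follicles with the help of the chemokine receptor CXCR5, depend on the repressor BCL6, and give germinal centre B cells the signals they need, among them IL-4, IL-21 and CD40 ligand. The question of the comparison was which transcripts differ in TFH cells when Ets1 has been deleted in T cells.

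The 6 TFH libraries held an estimated 11.86 to 14.03 M fragments each, and no pair was identical. Pearson's r of log2 levels across genes was 0.94 to 0.948 between WT libraries, 0.958 to 0.963 between KO libraries and 0.886 to 0.896 between the groups. The first principal component held 55.3% of the variance, with WT libraries between -41.9 and -38.4 and KO libraries between 39.5 and 41.1. The number of unnamed assembled loci was 12338 to 25171 per WT library and 7855 to 10233 per KO library, a difference whose part in the results was not tested. Levels below are FPKM scaled between libraries (factors 0.971 to 1.03), and changes are differences of log2(FPKM + 1), KO minus WT, from limma. A gene is called where its p, adjusted by Benjamini-Hochberg over all genes tested, is under 0.05.

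Ets1 itself (chromosome 9, 32696024 to 32757820, mm10) stood at 196, 233 and 245 FPKM in WT, against 246, 299 and 292 FPKM in the KO libraries. All KO libraries lay above all WT libraries, by a margin of 1 FPKM at the closest pair. The WT mean was 224 ± 25.4 and the KO mean 279 ± 28.9 FPKM (SD, n = 3 libraries each). The log2 change of 0.31 (SE 0.12) did not pass in limma (adjusted p = 0.12), and it did in a fit of all 12 libraries (0.37, adjusted p = 0.013). An exact permutation test (two-sided) gave p = 0.1, which is as low as this design can go. Exons outside the floxed segment count towards a gene-level value, so the value does not test the deletion, and genotypes are given as labelled.

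Of the 10556 genes, 2147 were called (20.3%). There were 961 higher (9.1%) and 1186 lower in KO (11.2%), and 3447 genes had an unadjusted p under 0.05. Falls were the larger changes: 793 called genes fell by 2-fold or more and 416 rose by as much, while 214 fell and 104 rose by 4-fold or more. The median log2 change of all genes was 0, with the 10th percentile at -0.91 and the 90th at 0.72. For 5724 genes (54.2%) the 95% interval of the change lay within 1 log2 unit of 0, and for 1057 (10%) within 0.5. WT and KO libraries did not overlap in 3886 of the 10070 genes with a value in all 6 libraries (38.6%). The number of calls depended on single libraries: 1246 genes were called without KO TFH replicate 3 and 1418 without KO TFH replicate 2.

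The direction of the calls differed with the level of the gene. Among 1025 genes with a mean over 100 FPKM, 28.5% were called higher and 12.4% lower. Among 3143 genes at 20 to 100 FPKM the shares were 10% and 11.4%, among 3772 genes at 5 to 20 FPKM 5.83% and 11.2%, and among 2616 genes under 5 FPKM 5.12% and 10.6%. The share called lower was therefore similar at every level, and the share called higher rose with it. The median SE fell from 0.34 log2 in the lowest class to 0.12 in the highest, so abundant genes were measured more precisely. By chromosome, the share called ran from 13.8% on chromosome 14 to 25.2% on chromosome 6, leaving out chromosome Y. Within 5 Mb of Ets1, 30 genes were tested and 7 were called (23.3%, near the 20.3% of all genes), with Fli1, an ETS factor next to Ets1, higher and 6 genes lower (Aplp2, Cdon, Esam, Slc37a2, St14 and St3gal4).

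**Figure D1:**
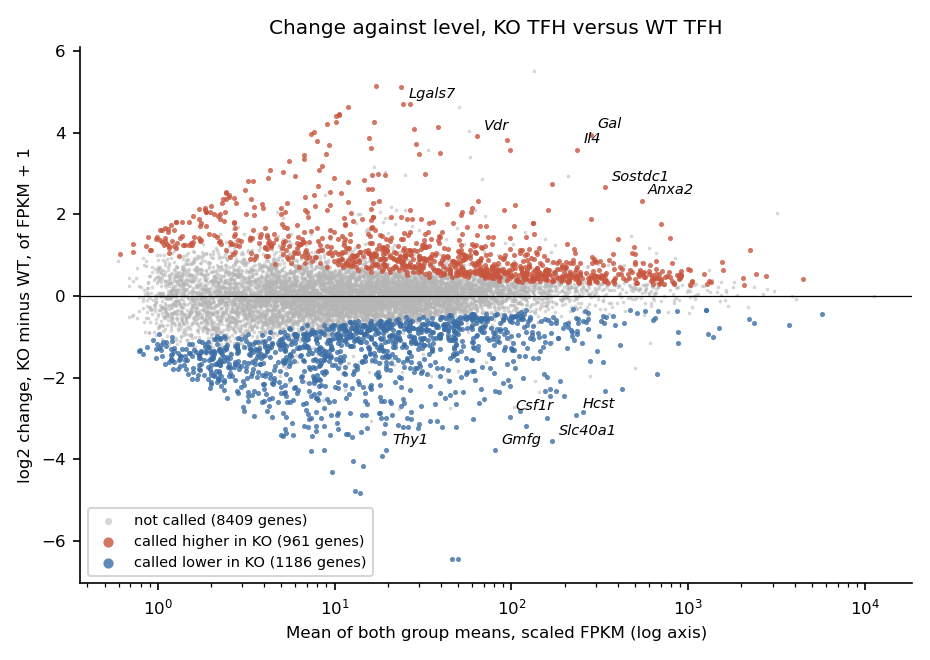
Change of each tested gene between KO and WT TFH libraries (log2 of FPKM + 1, vertical axis) against its mean level in scaled FPKM (log axis). Red and blue points are the 961 genes called higher and the 1186 called lower, grey points the genes not called. Red points crowd at the abundant end with small changes, and the widest changes lie at moderate levels.

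Genes of the largest changes were named only if their WT and KO libraries did not overlap, as in 38.6% of genes with complete values. The largest rises with a value above 0 in every library belonged to genes with little in common by function. Lgals7, a galectin of stratified epithelia, stood at 0.176, 0.723 and 2.15 FPKM in WT, against 50.5, 51.8 and 40.6 FPKM in KO libraries (log2 change 4.71, SE 0.34, adjusted p = 6.4e-05). Ddc, the decarboxylase that makes dopamine and serotonin, stood at 2, 4.85 and 3.01 FPKM in WT, against 95.9, 54.5 and 71.4 FPKM in KO (4.14, SE 0.29, adjusted p = 5e-05). Prodh, the mitochondrial enzyme that begins proline breakdown, stood at 2.29, 1.7 and 2.33 FPKM in WT, against 59.4, 33.7 and 69.8 FPKM in KO (4.1, SE 0.28). In all of these genes the highest WT library lay far below the lowest KO library.

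Gal (chromosome 19, 3409917 to 3414457), which encodes the neuropeptide galanin, stood at 36.6, 40.7 and 22.8 FPKM in WT, against 532, 394 and 661 FPKM in KO libraries (3.96, SE 0.25, adjusted p = 7.2e-05). Vdr, the vitamin D receptor, stood at 6.85, 8.6 and 5.47 FPKM in WT, against 136, 92.7 and 134 FPKM in KO (3.93, SE 0.21, adjusted p = 1.9e-05). Padi4, an enzyme that converts arginine in proteins to citrulline, went from 12 ± 4.56 to 177 ± 18.7 FPKM (3.83, SE 0.24). Vdr and Padi4 were low and Gal was at a moderate level in WT TFH cells, and all were among the more abundant transcripts of KO TFH cells. Itgam, the alpha chain of the integrin Mac-1 that is known from myeloid cells, stood at 1.35, 1.12 and 2.19 FPKM in WT, against 27.8, 34.1 and 29.7 FPKM in KO libraries (3.64, SE 0.24, adjusted p = 3.5e-05). It rose while most markers of macrophages fell (below). Cdkn1a, the cyclin-dependent kinase inhibitor p21, stood at 5.74, 6.36 and 3.95 FPKM in WT, against 92.6, 45 and 83.2 FPKM in KO (3.51, SE 0.29, adjusted p = 0.00011).

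Il4 (chromosome 11, 53612461 to 53618689), the cytokine that directs B cells to make IgG1 and IgE, stood at 41.4, 54.8 and 17.1 FPKM in WT, against 490, 290 and 524 FPKM in KO libraries (3.59, SE 0.48, adjusted p = 0.0064). The lowest KO library was above the highest WT library, which the rule for naming required. The WT libraries varied among themselves, with an SD of 19.1 FPKM beside a mean of 37.8 FPKM. The other 3 genes of the 12 largest rises were Fbln1 (a matrix glycoprotein, 3.88), Sbk2 (a kinase, 3.74) and Rasl11a (a small GTPase of the Ras family, 3.58). Rasl11a reached 152, 208 and 185 FPKM in KO from 13.5, 11.2 and 18.9 FPKM in WT libraries.

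Among genes at 100 FPKM or more, Sostdc1, a secreted BMP and Wnt antagonist known from a subset of TFH cells, stood at 67.9, 137 and 80.5 FPKM in WT, against 573, 513 and 670 FPKM in KO libraries (2.67, SE 0.25, adjusted p = 0.00045). Il1r2, the decoy receptor for IL-1, stood at 38.8, 74.4 and 25.8 FPKM in WT, against 307, 253 and 317 FPKM in KO (2.76, SE 0.36, adjusted p = 0.0034). In both genes WT TFH replicate 2 was the highest WT library, still well below every KO library. Anxa2, a calcium-dependent membrane-binding annexin, stood at 190, 159 and 191 FPKM in WT, against 968, 848 and 914 FPKM in KO (2.34, SE 0.11, adjusted p = 1.4e-05), the narrowest spread among these rises. Cela1, an elastase, also belonged to this class (2.34).

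The largest falls fell into a set of genes expressed in T cells and a set known from macrophages and other myeloid cells. Gmfg (chromosome 7, 28437447 to 28446895), an actin regulator of blood cells, stood at 132, 138 and 187 FPKM in WT, against 8.9, 13.7 and 8.12 FPKM in KO libraries (-3.78, SE 0.22, adjusted p = 2.4e-05). Hcst, the signalling adaptor DAP10, stood at 419, 402 and 417 FPKM in WT, against 54.3, 56.5 and 51.3 FPKM in KO (-2.91, SE 0.1, adjusted p = 4.5e-06), the smallest adjusted p of the genes named here. Thy1, a surface glycoprotein of T cells, stood at 48.5, 32.1 and 31.4 FPKM in WT, against 1.69, 1.43 and 2.14 FPKM in KO (-3.78, SE 0.24, adjusted p = 3.4e-05). In Gmfg, Hcst and Thy1 no library of one group came near the other, and the libraries of a group were closest to each other in Hcst.

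Sh2d2a, the adaptor TSAd of T cell receptor signalling, stood at 188, 68.8 and 72.7 FPKM in WT, against 9.14, 15 and 10.5 FPKM in KO libraries (-3.01, SE 0.4, adjusted p = 0.0025), with WT TFH replicate 1 the high one. Rgs2, which shortens signalling by G protein-coupled receptors, stood at 109, 119 and 110 FPKM in WT, against 20.3, 18.5 and 14.4 FPKM in KO (-2.62, SE 0.16, adjusted p = 3e-05). Traf1, an adaptor of TNF receptors and a target of NF-kB, stood at 129, 94.1 and 136 FPKM in WT, against 22.1, 15 and 22.7 FPKM in KO (-2.53, SE 0.2, adjusted p = 0.0001). Klk8, a secreted serine protease, fell by 3.24 on the log2 scale (SE 0.27), and so did Pydc3 (SE 0.21), whose reads may be shared with close copies of the same family.

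Slc40a1, the iron exporter ferroportin of red pulp macrophages, stood at 213, 510 and 228 FPKM in WT, against 33.6, 19.8 and 20.2 FPKM in KO libraries (-3.56, SE 0.38, adjusted p = 0.0016). Csf1r, the receptor that macrophages need to survive, stood at 153, 214 and 155 FPKM in WT, against 22, 18.8 and 23.1 FPKM in KO (-2.96, SE 0.16, adjusted p = 2.3e-05). Vcam1 went from 285 ± 123 to 34.2 ± 10 FPKM (-2.98), Trf, which encodes transferrin, from 220 ± 77.3 to 22.4 ± 4.89 FPKM (-3.2), and Fcna, a ficolin, from 196 ± 52.9 to 27.2 ± 9.01 FPKM (-2.81). In each of these 5 genes WT TFH replicate 2 was the highest library. Mrc1 (the mannose receptor), Fpr1 (a receptor for formylated peptides), Siglece, Hcar2, Ccr3, Spp1 and Treml4 fell by 3.21 to 3.43 on the log2 scale. WT TFH replicate 2 was the highest WT library in 13 of the 20 named falls (65%), against 492 of 1159 (42.5%) of the genes called lower that had a value in each WT library.

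**Figure D2:**
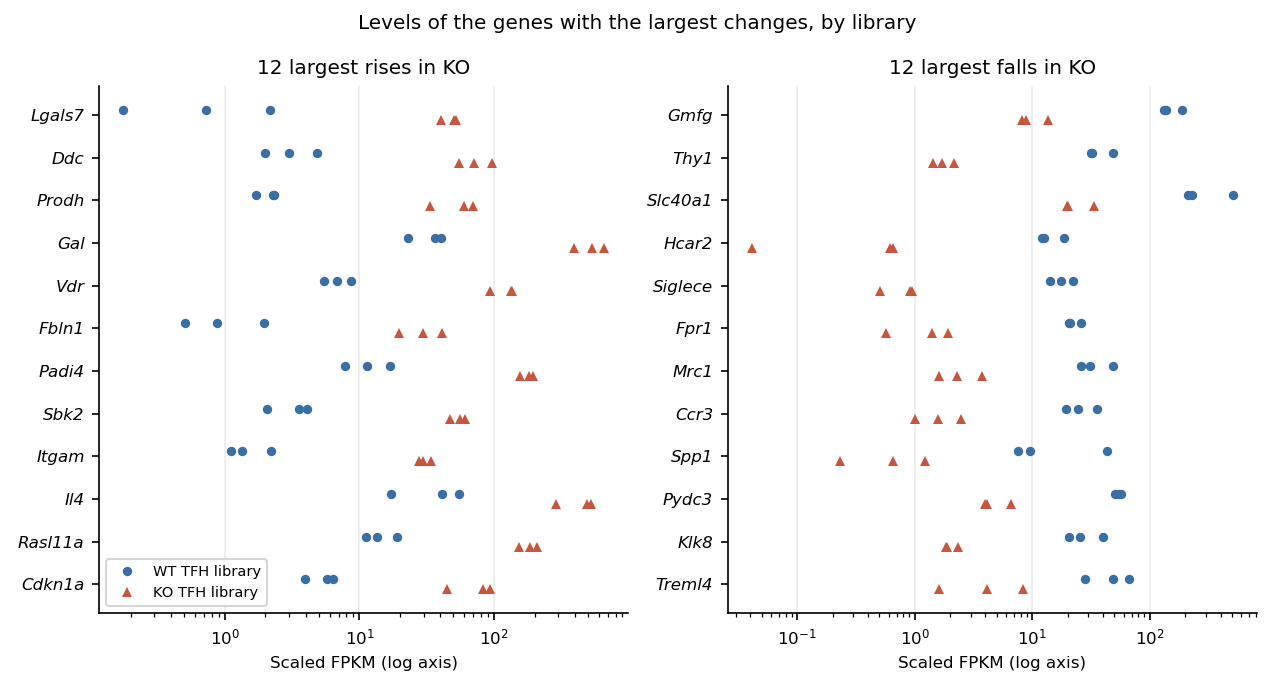
Level in each TFH library (scaled FPKM, log axis) of the 12 genes with the largest rises and the 12 with the largest falls that had a value above 0 in all 6 libraries and no overlap between the groups. Circles are WT and triangles KO libraries, and the gap between them is the feature by which these genes were chosen. Gal and Il4 end among the higher levels on the left, and Slc40a1 starts highest on the right.

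Markers of other cells moved with the genotype. Of 18 markers of macrophages and monocytes, 14 fell and 1 rose (Lyz2), with a median log2 change of -2.45. None of them was at 0 in all libraries of a group. The 16 of them with a value in every library summed to 1630, 2980 and 1720 FPKM in WT and to 384, 274 and 292 FPKM in KO libraries, and WT TFH replicate 2 was the highest WT library for all 13 of the called falls with complete WT values. C1qb, a complement subunit made by macrophages, stood at 276, 470 and 263 FPKM in WT, against 65.6, 56.1 and 54.6 FPKM in KO. Lyz2 went against this, from 320 and 330 FPKM in 2 WT libraries to 835, 519 and 659 FPKM in KO, and its reads may be shared with its near copy Lyz1. In bulk samples fewer cells of a type and less RNA per cell cannot be told apart. The part of such cells in the falls of myeloid genes and in the other changes was not tested. Without WT TFH replicate 2, 752 genes were called lower, and 13 of the macrophage markers.

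Markers of B cells summed to 147 to 175 FPKM in WT and to 94.4 to 116 FPKM in KO libraries, and 4 of 12 fell (Cd22, Bank1, Fcmr and Blnk). Of 8 markers of dendritic cells 3 fell (1 without WT TFH replicate 1 or 3) and 1 rose (a call lost without any single WT library), and their sums of 86.3 to 115 FPKM in WT and 45.4 to 88.1 FPKM in KO overlapped. Markers of CD8 T and NK cells summed to 23.9 to 32.4 FPKM in WT and 57.2 to 75.5 FPKM in KO. This rests on Cd8b1, which rose from 9.64 ± 2.48 to 44 ± 5.86 FPKM, while Klrk1 fell. The sum leaves out members that share entries. The joint entry of Klrb1a and Klrb1c fell from 11.8 ± 2.86 to 3.26 ± 0.502 FPKM (-1.57, SE 0.25, adjusted p = 0.003). Sums of neutrophil markers lay between 2.8 and 24.7 FPKM, with no separation of the groups. Those of erythroid cells and platelets lay between 0.662 and 21.2 FPKM, also without separation, but leave out the haemoglobin genes, which share entries. Hba-a1 and Hba-a2 together stood at 78.8, 2236 and 328 FPKM in WT, against 89.8, 125 and 132 FPKM in KO. Hbb-b1 and Hbb-bs together stood at 25.5, 1430 and 94.9 FPKM in WT, against 32.4, 40.9 and 43.9 FPKM in KO. Neither entry passed, and WT TFH replicate 2 was the highest library in both.

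Each KO TFH library listed the Y-linked transcripts at 0. Eif2s3y stood at 68.1, 4.96 and 13.4 FPKM in WT libraries and Ddx3y at 38.4, 2.54 and 6 FPKM, while Xist, the transcript of the inactive X chromosome in females, stood at 0, 18.3 and 15.5 FPKM in WT, against 25.7, 18.4 and 16.3 FPKM in KO. WT TFH replicate 1 therefore held Y-linked transcripts and no Xist, the other WT libraries held both, and the KO libraries held Xist alone. The Y-linked transcripts thus differed with the genotype, while Xist was at 0 only in WT TFH replicate 1 and did not pass. Eif2s3y and Ddx3y were called lower, and neither was called with any single library left out. The part of sex-linked transcripts in the results was not tested, and 1616 genes were called without WT TFH replicate 1.

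T cell transcripts were present in all 6 libraries. The sum over 12 genes of T cell identity was 4860 to 4910 FPKM in WT and 5020 to 5790 FPKM in KO, with 2 genes higher, 3 lower and a median of -0.1. Cd247, the zeta chain of the receptor complex, rose from 298 ± 12.8 to 691 ± 38.6 FPKM (1.21, SE 0.09), and Cd3e, another chain of the same complex, fell from 751 ± 13.6 to 506 ± 63.2 FPKM (-0.58, SE 0.1). Cd3d stood at 1095 ± 103 and 1108 ± 135 FPKM, with an interval of its log2 change from -0.23 to 0.26. Cd4 itself stood at 336, 299 and 314 FPKM in WT, against 184, 194 and 301 FPKM in KO, so that KO TFH replicate 3 overlapped the WT libraries and the gene did not pass (adjusted p = 0.076).

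**Figure D3:**
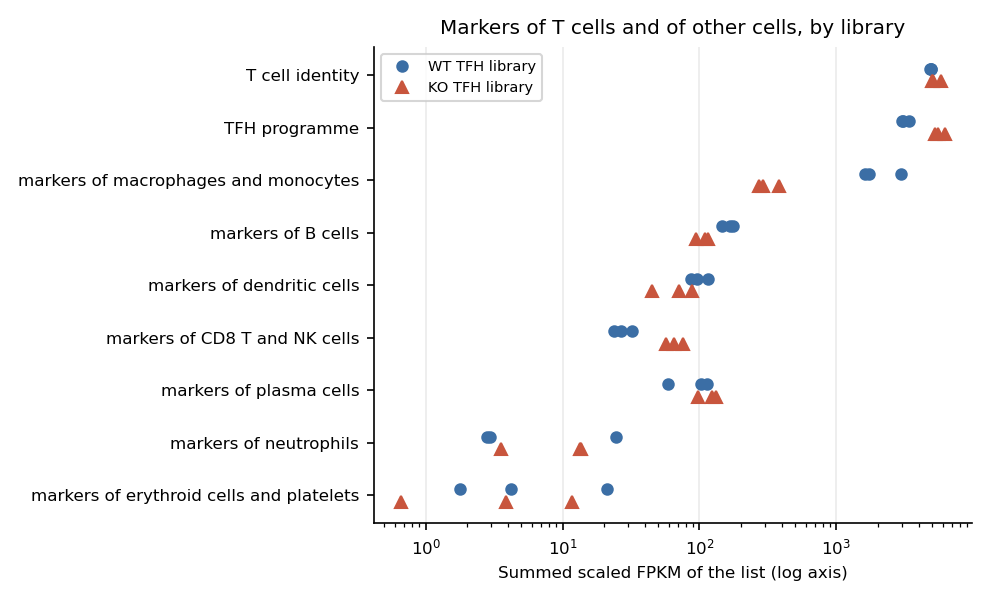
Summed level (scaled FPKM, log axis) of marker lists in each TFH library, over the members with a value in all 6 libraries. Circles are WT and triangles KO libraries. T cell identity genes lie at 4860 to 5790 FPKM in all libraries. Macrophage and monocyte markers separate at 1630 to 2980 in WT against 274 to 384 in KO. Sums of neutrophil, erythroid and platelet markers stay under 25 FPKM in each library, but leave out the haemoglobin genes, which share entries.

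Of all genes 9.1% were called higher and 11.2% lower, shares to set beside the counts of every list in this report. Of 26 genes of the TFH programme tested, 11 rose, 3 fell and 12 did not pass, with a median log2 change of 0.45. After Il4 and Sostdc1, the largest rise was that of Pou2af1, a lymphocyte coactivator, which stood at 32.9, 31.3 and 35.8 FPKM in WT, against 172, 115 and 159 FPKM in KO (2.1, SE 0.16). S1pr2, the receptor that keeps cells within the follicle, stood at 38, 29.2 and 32.6 FPKM in WT, against 117, 99.4 and 117 FPKM in KO (1.71, SE 0.14, adjusted p = 0.00012). The marker genes of the sort and of the lineage divided. Pdcd1, which encodes PD-1, stood at 420, 435 and 360 FPKM in WT, against 667, 665 and 777 FPKM in KO (0.8, SE 0.11, adjusted p = 0.0014), whereas Cxcr5 did not pass, at 290, 176 and 205 FPKM in WT, against 138, 159 and 173 FPKM in KO (-0.49, SE 0.18, adjusted p = 0.098).

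Bcl6, the lineage-defining repressor, stood at 37, 38.7 and 29.7 FPKM in WT, against 57.5, 50.8 and 57.3 FPKM in KO (0.64, SE 0.15, adjusted p = 0.017). The call of Bcl6 was lost without KO TFH replicate 1 or 3, with adjusted p between 0.0013 and 0.068 over the alternatives. Sh2d1a, the adaptor SAP through which TFH cells hold on to B cells, rose from 428 ± 48.3 to 1153 ± 119 FPKM (1.43, SE 0.11, adjusted p = 9.1e-05). Tcf7 and Maf, factors upstream in the lineage, did not pass. Tcf7 stood at 319 ± 38.3 and 302 ± 27.7 FPKM (interval -0.35 to 0.2), Maf at 44.2 ± 5.03 and 43.3 ± 10.5 FPKM (interval -0.5 to 0.4), and Icos at 197 ± 68.5 and 216 ± 12.6 FPKM (interval -0.3 to 0.67).

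The members that fell were Irf4, P2rx7 and Il21. Irf4, a factor induced by receptor signalling, stood at 9.59, 12.4 and 14.7 FPKM in WT, against 3.56, 1.89 and 3.41 FPKM in KO (-1.75, SE 0.28, adjusted p = 0.0029). P2rx7, an ATP-gated channel that limits TFH cell survival, went from 53.6 ± 8.95 to 30 ± 3.97 FPKM (-0.81, SE 0.18, adjusted p = 0.012). Il21, the cytokine of germinal centre help, stood at 89.5, 69.5 and 81.3 FPKM in WT, against 50.8, 59.2 and 49.1 FPKM in KO (-0.58, SE 0.14, adjusted p = 0.021). The groups did not overlap in Il21, and its call was lost in 5 of 18 alternatives (adjusted p 0.016 to 0.083).

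Secreted cytokines other than Il4 were lower as a group. Of 14 tested, 10 fell and 2 rose (Il4 and Csf1), with a median log2 change of -1.41. Ltb, which encodes lymphotoxin beta, had no value in WT TFH replicate 1, stood at 485 and 402 FPKM in the other WT libraries and at 44.1, 74.7 and 67.3 FPKM in KO (-2.85, SE 0.23, adjusted p = 0.00026). Ifng, the cytokine of type 1 responses, stood at 75.9, 51.2 and 46 FPKM in WT, against 10.6, 13 and 10.9 FPKM in KO (-2.2, SE 0.21, adjusted p = 0.00022). Ccl4, a chemokine, stood at 42.7, 21.7 and 16.8 FPKM in WT, against 9.6, 2.5 and 3.29 FPKM in KO (-2.27, SE 0.48), a call lost without KO TFH replicate 3. Il2, the T cell growth factor, was low throughout, at 6.3, 3.78 and 1.68 FPKM in WT, against 0.195, 0 and 0 FPKM in KO (-2.1, SE 0.4). Both Il2 and Ccl4 were highest in WT TFH replicate 1. The call of Csf1 was lost whichever library was left out. Il10 stood at 17.4 ± 7.8 and 16.4 ± 4.63 FPKM and Tgfb1 at 28.4 ± 5.82 and 21.4 ± 5.27 FPKM, and neither passed.

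Of 24 cytokine receptors tested, 10 fell and 1 rose (Il1r2, above), with a median of -0.44, and the number that fell was 6 without KO TFH replicate 1 or 3. Il2ra, which makes the IL-2 receptor high in affinity, stood at 15.8, 12.7 and 24.8 FPKM in WT, against 3.73, 3.02 and 2.87 FPKM in KO (-2.11, SE 0.27, adjusted p = 0.0011). Il7r, which carries survival signals of naive and memory cells, stood at 41.7, 58.4 and 36.3 FPKM in WT, against 20.8, 10.7 and 11 FPKM in KO (-1.65, SE 0.28). Il10ra went from 38 ± 3.27 to 14.5 ± 4.61 FPKM (-1.37) and Il12rb1 from 13.7 ± 4.18 to 5.31 ± 1.92 FPKM (-1.22, a call kept in 14 of 18 alternatives). Il4ra, the receptor for the cytokine that rose, stood at 25.8 ± 3.05 and 23 ± 1.42 FPKM and did not pass (interval -0.52 to 0.21). Il2ra also belongs to the regulatory T cell genes, of which 5 of 12 fell (Il2ra, Ebi3, Ctla4, Klrg1 and Tnfrsf18) and 2 rose (Itgae and Gpr83, with 1 left without KO TFH replicate 3). Foxp3, the factor that defines these cells, shared its entry with Ppp1r3fos and is not in that count. The joint entry held 47.1, 68.2 and 79 FPKM in WT libraries and 8.71, 11.8 and 7.93 FPKM in KO libraries (-2.64, SE 0.23, adjusted p = 0.00014), with no overlap, and the part of regulatory T cells in other falls was not tested. Also lower was Ctla4, an inhibitory receptor, at 195, 230 and 203 FPKM in WT, against 78.7, 71.1 and 68.5 FPKM in KO.

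Of 15 AP-1, NR4A and EGR factors, which are switched on within minutes of receptor signalling, 7 fell and none rose, with a median log2 change of -0.44. Junb stood at 1160, 1051 and 939 FPKM in WT, against 276, 263 and 288 FPKM in KO (-1.92, SE 0.1, adjusted p = 1.8e-05). Fos stood at 742, 753 and 583 FPKM in WT, against 197, 139 and 105 FPKM in KO (-2.27, SE 0.22, adjusted p = 0.0005). The summed level of the list was 2050 to 2440 FPKM in WT and 877 to 920 FPKM in KO. The fall did not extend to all members: Egr1 stood at 81.8 ± 20.5 and 96.8 ± 25.2 FPKM (interval -0.33 to 0.81) and Jund at 12 ± 3.65 and 10.4 ± 3.94 FPKM. The largest changes were at low levels, in Atf3 (7.28 ± 1.9 to 0.457 ± 0.791 FPKM, listed at 0 in 2 KO libraries) and Fosb (15.9 ± 3.5 to 2.17 ± 1.46 FPKM). With a mean per group fitted to all 12 libraries, Fosb no longer passed and 1 member of the list was called higher.

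Of 13 NF-kB and NFAT factors, 7 fell and 1 rose, with a median of -0.51. Nfkb1, which encodes the p50 subunit, rose from 34.4, 63.2 and 64.3 FPKM in WT to 164, 114 and 151 FPKM in KO (1.42, SE 0.25, adjusted p = 0.0066). Tnfaip3, the inhibitor A20, fell from 98.6, 149 and 99.9 FPKM to 46.7, 37.1 and 33.5 FPKM (-1.53, SE 0.19, adjusted p = 0.001). The number that fell dropped to 3 or 4 without any WT library, KO TFH replicate 2 or KO TFH replicate 3. STAT, IRF and SOCS genes fell in 8 of 18, with 1 higher (Irf3) and a median of -0.41. Without KO TFH replicate 3, 5 fell and none rose, and without KO TFH replicate 1, 2 rose. Beside Irf4, the larger falls were Socs2, Socs3 and Cish, feedback inhibitors of cytokine signalling: Socs3 stood at 14.9, 17.4 and 13.9 FPKM in WT, against 3.81, 7.05 and 8.09 FPKM in KO (-1.21, SE 0.27).

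Genes of T cell receptor signalling moved both ways, with 9 of 24 lower, 3 higher and a median of -0.16. After Sh2d2a, Sit1, a transmembrane adaptor, fell from 85.9, 96.1 and 85.7 FPKM to 13.2, 20 and 17.6 FPKM (-2.35, SE 0.17, adjusted p = 6.4e-05). Plcg1, the phospholipase downstream of the receptor, fell from 30.8 ± 1.9 to 13.3 ± 1.03 FPKM (-1.15, SE 0.16). Rasgrp1, which activates Ras, rose from 61.7 ± 8.39 to 117 ± 6.54 FPKM (0.92, SE 0.13), and Fyn, a Src family kinase, from 68 ± 9.41 to 120 ± 1.79 FPKM (0.81, SE 0.13). The kinase Zap70 (0.37) did not pass. The joint entry of Lck and Mir8119 is not in these counts. It fell from 971 ± 79.9 to 756 ± 62 FPKM (-0.36, SE 0.1, adjusted p = 0.031). Nor do they hold that of Lat and Mir7058, which did not pass (0.13).

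Among regulators of G protein signalling 8 of 15 fell (5 without WT TFH replicate 1) and 1 rose, with a median of -0.61. Rgs1, which dampens chemokine receptors in lymphocytes, stood at 293, 355 and 245 FPKM in WT, against 58.6, 54.9 and 58.7 FPKM in KO (-2.34, SE 0.14, adjusted p = 3.3e-05). Rgs10 stood at 339, 304 and 293 FPKM in WT, against 630, 648 and 673 FPKM in KO (1.06, SE 0.09, adjusted p = 0.00014). The family therefore held large changes in both directions, each with the groups far apart. Of 16 chemokine and lipid receptors, 6 fell and 2 rose (median -0.37), with 3 falls without WT TFH replicate 3 and 1 rise without any single WT library. Ccr7, which guides cells to the T cell zone, fell from 81, 96.4 and 87 FPKM to 20.7, 23.8 and 23.3 FPKM (-1.91, SE 0.14), and Cxcr3, a receptor of type 1 cells, from 166, 165 and 157 FPKM to 40, 56.9 and 46.6 FPKM (-1.76, SE 0.14).

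Co-stimulatory and co-inhibitory receptors split into 5 higher and 6 lower of 20, with a median of 0.12. Cd160 rose from 20.3 ± 2.56 to 58.6 ± 16 FPKM (1.46, SE 0.21) and Cd200 from 69.3 ± 3.85 to 153 ± 19.5 FPKM (1.12, SE 0.13). Both are surface receptors or ligands that restrain leukocytes. Lair1, an inhibitory collagen receptor, fell from 11.1 ± 1.87 to 1.96 ± 1.12 FPKM (-2.09, SE 0.33), and Lag3, an inhibitory receptor for MHC class II, from 6.38 ± 1.33 to 1.72 ± 0.454 FPKM (-1.44, SE 0.27).

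Phosphatases that end MAP kinase signals were in part lower. Of 15 genes of this feedback, 4 fell (Dusp1, Dusp2, Dusp6 and Dusp7) and 2 rose, with a median of -0.32, and 1 or 2 of the falls passed without any library but KO TFH replicate 2. Dusp1 stood at 150, 335 and 240 FPKM in WT, against 47.9, 87.8 and 51.5 FPKM in KO (-1.92, SE 0.35). Dusp4, which acts on ERK in the nucleus, rose from 4.3, 5.6 and 4.93 FPKM to 15.3, 26.1 and 20.5 FPKM (1.84, SE 0.24). Interferon-stimulated genes fell in 8 of 28 and rose in 2 (Oasl1 and Oasl2, median -0.29), against 11.2% lower and 9.1% higher of all genes. Oasl1 kept its call in 11 of 18 alternatives. Without KO TFH replicate 2 or either of the first 2 WT libraries 5 falls were left, and 4 without KO TFH replicate 3. The number that rose was 1 without either of the last 2 libraries of WT or of KO, and 3 without WT TFH replicate 1. Iigp1, an interferon-induced GTPase, fell from 26.3, 23.1 and 28.4 FPKM to 8.89, 11.4 and 9.06 FPKM (-1.32, SE 0.18), and Oasl2 went the other way, from 5.61 ± 1.11 to 23.1 ± 1.21 FPKM (1.88, SE 0.2).

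Surface ectoenzymes and TNF receptors held some of the larger single changes. Cd38, which breaks down NAD, stood at 37, 66.7 and 44.3 FPKM in WT, against 4.4, 4.64 and 6.19 FPKM in KO (-3.02, SE 0.25, adjusted p = 0.00011). Entpd1, which encodes CD39 and degrades ATP, fell from 14.4 ± 3.01 to 1.99 ± 0.923 FPKM (-2.39, SE 0.3). Both enzymes are also made by macrophages, and the part of those cells was not tested. Dpp4, a surface peptidase, rose from 71.3, 64.6 and 57.3 FPKM to 166, 190 and 173 FPKM (1.44, SE 0.12, adjusted p = 0.00013). Of 16 TNF receptor superfamily genes 5 fell and 2 rose, with Tnfrsf1b, the second TNF receptor, at 72.4 ± 17.6 and 26.6 ± 3.36 FPKM (-1.39) and Tnfrsf8, which encodes CD30, at 6.09 ± 0.997 and 16.6 ± 1.4 FPKM (1.32). Of 22 genes of the BCL2 family and cell death 6 fell and 2 rose (median -0.18), and neither rise passed without KO TFH replicate 3. The shares of all genes, beside this list and the TNF receptors, were 11.2% lower and 9.1% higher. Joint entries are not in the count. That of Bcl2a1a, Bcl2a1b and Mthfs fell from 531 ± 20.6 to 337 ± 22.2 FPKM (-0.66). That of Bcl2a1d and Mthfsl fell from 265 ± 2.93 to 155 ± 10.3 FPKM (-0.77). Pmaip1, the death-promoting NOXA, fell from 37.2 ± 4.91 to 11.5 ± 2.67 FPKM (-1.62), and so did Cflar, the caspase-8 inhibitor FLIP, from 30.2 ± 5.49 to 14.4 ± 1.77 FPKM (-1.01).

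Of 19 cytotoxic and lysosomal effectors, 8 fell and none rose, with a median of -0.76. Serpinb6b, a serpin with close paralogs among which reads may be shared, stood at 15.3, 13.5 and 20.8 FPKM in WT, against 0.869, 1.5 and 0.431 FPKM in KO (-3.2, SE 0.3). Ctsw, a cathepsin of cytotoxic cells, stood at 22.1, 49.6 and 34.6 FPKM in WT, against 0, 3.59 and 1.56 FPKM in KO (-3.93, SE 0.56), a call lost with a pseudocount of 0.1. Gzmk, a granzyme, fell from 52.8, 32.4 and 31.4 FPKM to 8.78, 7.85 and 9.15 FPKM (-2.02, SE 0.23, adjusted p = 0.0005), while Gzmb did not pass (9.06, 2.28 and 3.89 FPKM in WT and 9.76, 18.7 and 7.96 FPKM in KO). Of 7 MHC class II genes 5 fell (median -0.99), and 3 did without KO TFH replicate 1 or 3. H2-Eb1 went from 163 ± 29.1 to 58 ± 5.14 FPKM (-1.46). These are genes of antigen-presenting cells, whose other markers are given above, and the part of such cells was not tested.

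Of 19 integrins and adhesion molecules 8 fell and 3 rose, with a median of -0.52 (-0.16 without WT TFH replicate 1), and 5 fell without WT TFH replicate 3, without KO TFH replicate 3 or without the variance trend. After Itgam, Itgae, the alpha chain that binds E-cadherin, rose from 2.61, 5.26 and 6.13 FPKM to 10.8, 17.1 and 14.4 FPKM (1.45, SE 0.3). Itgav fell from 7.82 ± 0.631 to 2.8 ± 0.238 FPKM (-1.22) and Icam1 from 52.8 ± 9.9 to 26.8 ± 0.916 FPKM (-0.94). Annexins, S100 proteins and galectins rose in 7 of 19 and fell in 3 (median 0.49). Lgals1, a secreted galectin, stood at 330, 295 and 306 FPKM in WT, against 779, 1141 and 1346 FPKM in KO (1.77, SE 0.18, adjusted p = 0.0005). S100a6 stood at 228, 216 and 214 FPKM in WT, against 487, 653 and 609 FPKM in KO (1.39, SE 0.12, adjusted p = 0.00014). In both, the WT libraries were nearly equal and the KO libraries spread over a wider range. Anxa6 (-0.87), Lgals8 (-0.77) and Anxa5 (-0.5) fell, so the family did not move as one, and 4 members rose with quantile normalization or without the variance trend.

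Of 14 tested genes of the ETS family, 4 were called higher and 1 lower, with a median of 0.05 (-0.15 to 0.09 without 1 library). Spib stood at 2.55 ± 1.17 and 7.66 ± 3.86 FPKM (1.25, SE 0.37), Ets2, the closest relative of Ets1, at 11.7, 12.6 and 9.84 FPKM in WT, against 21.7, 29.2 and 33.4 FPKM in KO (1.22, SE 0.21, adjusted p = 0.004). Etv5, which had no value in WT TFH replicate 1, stood at 6.86 ± 0.145 (n = 2) and 16.9 ± 1.63 FPKM (1.18, SE 0.22). Fli1, the neighbour of Ets1, stood at 28.3, 35.1 and 35.3 FPKM in WT, against 47.4, 44.2 and 50.9 FPKM in KO (0.52, SE 0.15, adjusted p = 0.038), and both Fli1 and Spib kept their calls in 9 of 18 alternatives. Leaving out any single library left 1 or 2 of the 4 rises. Spi1, the PU.1 factor of myeloid and B cells, fell from 15.4 ± 2.83 to 5.29 ± 0.749 FPKM (-1.37, SE 0.22) together with the macrophage markers. Elf1 stood at 91.6 ± 12.1 and 70.5 ± 2.79 FPKM and Gabpa at 22.2 ± 1.23 and 20.7 ± 3.54 FPKM, and neither passed.

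Among factors of T cell development, Id1, an inhibitor of E proteins, stood at 2.07, 2.02 and 0.818 FPKM in WT, against 15.6, 20.9 and 18.2 FPKM in KO (2.9, SE 0.28, adjusted p = 0.00023). Id2, from the same family, went the other way, from 209, 306 and 223 FPKM to 146, 110 and 101 FPKM (-1.04, SE 0.18, adjusted p = 0.005). Ikzf1, which encodes Ikaros, rose from 36.6 ± 5.17 to 80.6 ± 11 FPKM (1.12, SE 0.16), while Runx3, a factor of CD8 and type 1 cells, fell from 5.99 ± 0.503 to 2.53 ± 1.05 FPKM (-1.03, SE 0.29), a call kept in 10 of 18 alternatives. Runx1, a known partner of Ets1 on DNA, stood at 14.4 ± 0.708 and 11.9 ± 1.09 FPKM and did not pass. Of 9 KLF and FOXO factors 3 fell (Klf4, Klf6 and Foxo1), with a median of -0.46. Klf6 stood at 136, 271 and 153 FPKM in WT, against 52.5, 38.2 and 42.3 FPKM in KO (-2.0, SE 0.26).

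Rises of small size were common among genes of growth and energy metabolism. Of 68 subunits of oxidative phosphorylation, 46 rose and none fell, with a median log2 change of 0.44. The largest rise was that of Ndufv2, a subunit of complex I, from 129, 215 and 115 FPKM to 336, 301 and 281 FPKM (1.05, SE 0.22). Cox5b, a subunit of complex IV, stood at 417, 343 and 340 FPKM in WT, against 606, 645 and 632 FPKM in KO (0.78, SE 0.1, adjusted p = 0.0013). The 67 subunits with a value in all libraries summed to 17600 to 19000 FPKM in WT and to 23600 to 27400 FPKM in KO. Such genes are abundant, and among all genes over 100 FPKM 28.5% were called higher. With quantile normalization, which makes the distribution of levels equal in all libraries, 17 subunits were called and the median was 0.25. Without the variance trend and robust moderation 11 were called, and 22 to 28 were called where replicate 2 or 3 of either group was left out.

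The mitochondrial ribosome rose in 14 of 52 (median 0.37), cytoplasmic ribosomal proteins in 22 of 65 (median 0.32) and the proteasome in 13 of 35 (median 0.36). No member was called lower in any of them. Of all genes 9.1% were called higher, but 10% of those at 20 to 100 FPKM and 28.5% of those over 100 FPKM. Whether these lists differ from other genes of their level was not tested. Mrpl1 stood at 14.1, 9.27 and 9.93 FPKM in WT, against 40, 41.7 and 48.6 FPKM in KO (1.89, SE 0.2). Rps26 stood at 782, 718 and 652 FPKM in WT, against 1072, 1107 and 1121 FPKM in KO (0.62, SE 0.09, adjusted p = 0.0018), and Psma7 went from 294 ± 29 to 466 ± 61.1 FPKM (0.66, SE 0.12). Ribosomal protein genes have many processed copies among which reads may be shared. With quantile normalization 5 cytoplasmic ribosomal proteins were called higher and 1 lower (median 0.1), and 6 proteasome genes were higher (median 0.21). Without the variance trend and robust moderation 5 genes of the mitochondrial ribosome, 3 cytoplasmic ribosomal proteins and 2 proteasome genes were called higher. Counts without 1 library fell to 6 for the mitochondrial ribosome (without KO TFH replicate 2 or 3, and 8 without WT TFH replicate 2 or 3), to 13 for ribosomal proteins (without WT TFH replicate 3 or KO TFH replicate 3) and to 5 to 7 for the proteasome without any library but WT TFH replicate 1.

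Of 22 glycolytic genes 9 rose and 1 fell, with a median of 0.55. Tpi1, triose phosphate isomerase, stood at 118, 117 and 119 FPKM in WT, against 446, 380 and 505 FPKM in KO (1.89, SE 0.12, adjusted p = 3.4e-05). Slc16a3, the lactate exporter MCT4, rose from 3.22, 6.52 and 4.39 FPKM to 23.3, 13.2 and 18.3 FPKM (1.76, SE 0.29, adjusted p = 0.0034). The glucose transporter Slc2a3 (GLUT3) fell from 14.8, 17.3 and 17.3 FPKM to 5.14, 3.5 and 6.29 FPKM (-1.58, SE 0.24, adjusted p = 0.0023), against the direction of the enzymes.

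Of 31 genes of mitosis 15 rose and none fell, with a median of 0.81. Ccna2, cyclin A2, stood at 12.3, 19.1 and 26 FPKM in WT, against 38.7, 68.2 and 47 FPKM in KO (1.4, SE 0.29). Birc5, which encodes survivin, stood at 72.8, 50.9 and 58.5 FPKM in WT, against 140, 127 and 137 FPKM in KO (1.15, SE 0.15, adjusted p = 0.001). Of 31 genes of DNA replication 9 rose and 1 fell (Cdt1, a call lost whichever library was left out; median 0.59), and 3 rose without KO TFH replicate 3 and 4 without KO TFH replicate 1. Ccne1, cyclin E1, stood at 4.36, 3.38 and 4.4 FPKM in WT, against 12.4, 25.1 and 18.7 FPKM in KO (1.92, SE 0.28). Of 16 cell cycle inhibitors and D cyclins, 4 rose, 2 fell (Gadd45b and Rbl2) and 10 did not pass, with a median of 0.09. Without WT TFH replicate 3, 3 rose and 4 fell. The largest rises of this list were Cdkn1a (above) and Cdkn2c, which encodes p18. Cdkn2c stood at 9.22, 14.4 and 12.8 FPKM in WT, against 22.3, 29.4 and 31.4 FPKM in KO (1.13, SE 0.22).

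**Figure D4:**
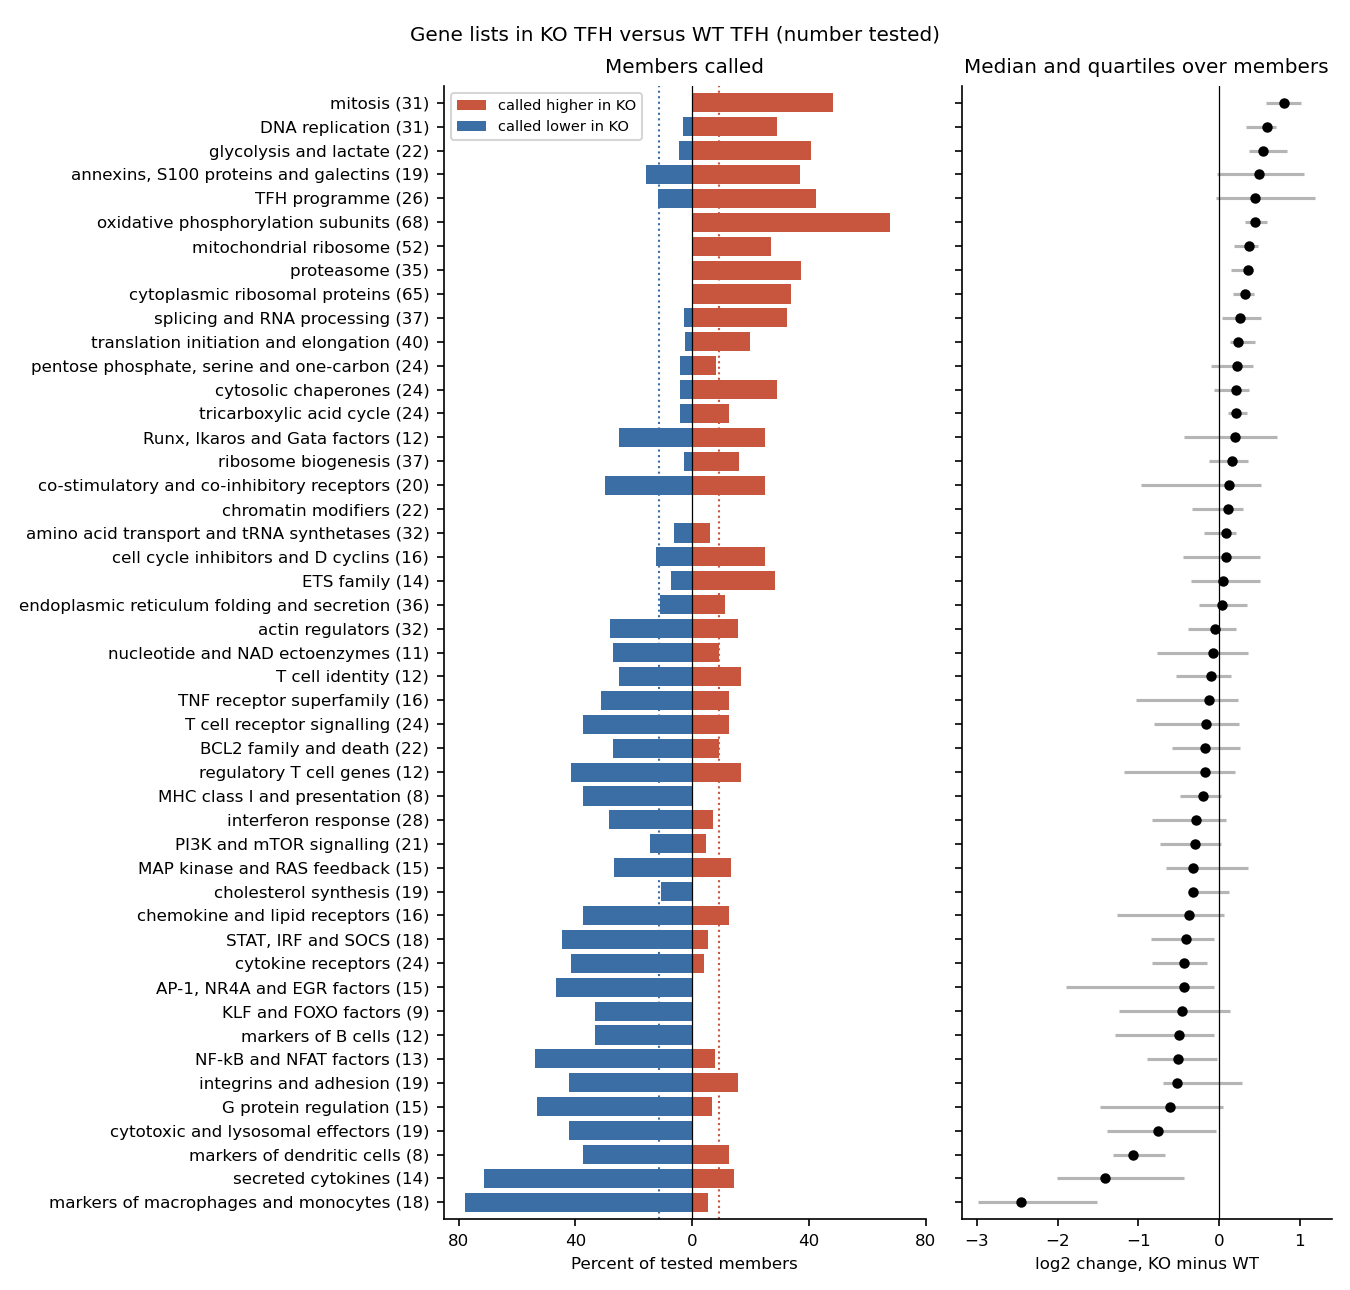
Share of the tested members of each gene list called higher (red, right) and lower (blue, left) in KO TFH libraries, with the median and quartiles of the log2 change at the right. Dotted lines mark the shares over all tested genes, 9.1% and 11.2%, and numbers in brackets are the members tested. Mitosis genes have a median of 0.81, with no blue bar, and macrophage and monocyte markers one of -2.45, with most of the bar blue.

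Some genes were listed at exactly 0 in every library of a group, which in these tables can be a measured absence or a failed estimate, so levels alone are given. There were 8 genes at 0 in all WT and at 5 FPKM or more in all KO libraries. Stard5 stood at 32.2, 37.3 and 34 FPKM in KO TFH libraries, and Bbip1 at 21.3, 22.7 and 19.8, Aktip at 20.6, 26.5 and 16.3 and Ankrd37 at 20.9, 17.3 and 23.3 FPKM. Stard5 was not at 0 in the non-TFH cells of either genotype (6.39 to 7.62 FPKM), and Bbip1 and Aktip were at 0 in all non-TFH libraries. Ankrd37 was reversed there, at 4.87, 3.85 and 3.43 FPKM in WT and at 0 in all KO non-TFH libraries. Retnla, a secreted product of alternatively activated macrophages, stood at 32.3, 18.7 and 10.2 FPKM in KO, and Chrna9, a subunit of acetylcholine receptors, at 13.9, 16.2 and 24.1 FPKM. In the other direction 7 genes were at 0 in all KO libraries, the highest being the small nucleolar RNA Snora31 (53.2, 137 and 86.3 FPKM in WT), Fam69a (23.1, 33.5 and 27.6), Gnl3 (25.1, 28.6 and 25.1) and Tspan4 (16.2, 25.7 and 16.4).

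The change in TFH cells was compared with the change in non-TFH cells by the difference itself, in a fit of all 12 libraries. These were scaled together, so levels and ratios beside non-TFH cells are on another scaling than the TFH levels above. The difference was tested in 10230 genes and called in 1719 (16.8%), of which 685 rose more or fell less and 1034 rose less or fell more in TFH cells. The labels number the libraries alike in both cell types and do not say whether libraries of a number share a mouse. The test treated all 12 as independent, and 1275 genes were called with a term for each number within a genotype, an alternative added after the data were seen. Of the 36 genes named above for the largest changes, 29 differed between the cell types. With the term for number 27 of these passed, and Il4 and Klk8 did not. The 36 were chosen for large changes in TFH cells, which enter the difference. So many passing was therefore built into the choice and does not show an effect particular to TFH cells.

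These differences are on the scale of log2(FPKM + 1), on which a gene far under 1 FPKM in non-TFH cells can show little change. With a pseudocount of 0.1, also added after the data were seen, 22 of the 29 passed in the same direction. Ddc, Vdr, Il4, Rasl11a, Cdkn1a, Il1r2 and Sostdc1 did not, and Thy1 passed. The mean of Vdr was 18-fold higher in KO than in WT in TFH cells and 23.1-fold higher in non-TFH cells, where the means were 1.48 and 0.064 FPKM. For Ddc these ratios were 23.4 in TFH and 31.9 in non-TFH cells, and for Cdkn1a they were 14.3 and 19.1. For these 3 genes the proportional change is not shown to be larger in TFH cells.

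Prodh rose more in TFH cells with either pseudocount. Its KO mean was 26.8-fold the WT mean there, against means of 1.09 FPKM in WT and 1.15 FPKM in KO non-TFH cells. The mean of Itgam was 20.4-fold higher in KO in TFH cells and 2.72-fold higher in non-TFH cells. Gal stood at 0 to 0.142 FPKM in non-TFH libraries and was scarcely detected there. Myeloid genes such as Slc40a1, Csf1r and Trf fell in TFH cells and had changes of 0.69, 1.03 and 0.61 in non-TFH cells, where their levels were at most 6.92 FPKM.

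Hcst changed by -2.79 (SE 0.08) in non-TFH cells, and its difference from TFH cells of -0.06 (SE 0.11) did not pass (adjusted p = 0.79). Thy1 changed by -3.32 (SE 0.16), with a difference of -0.35 (SE 0.22, adjusted p = 0.33) that became -0.9 with the pseudocount of 0.1 (adjusted p = 0.029). Thy1 stood at 297 to 300 FPKM in WT and 27.1 to 31.2 FPKM in KO non-TFH libraries. Lgals7, Fbln1, Sh2d2a, Rgs2 and Traf1 did not pass either, which does not show that they changed alike. Rgs2 had a change of -0.38 (SE 0.62) in non-TFH cells and a difference of -2.18 (SE 0.88), too wide a spread to call. Anxa2 and Cela1 rose more in non-TFH cells, by 4.14 (SE 0.12) and 3.75 (SE 0.25). Anxa2 started there from 4.33 to 6.08 FPKM and reached 100 to 120 FPKM, below its mean of 157 FPKM in WT TFH cells on the same scaling.

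**Figure D5:**
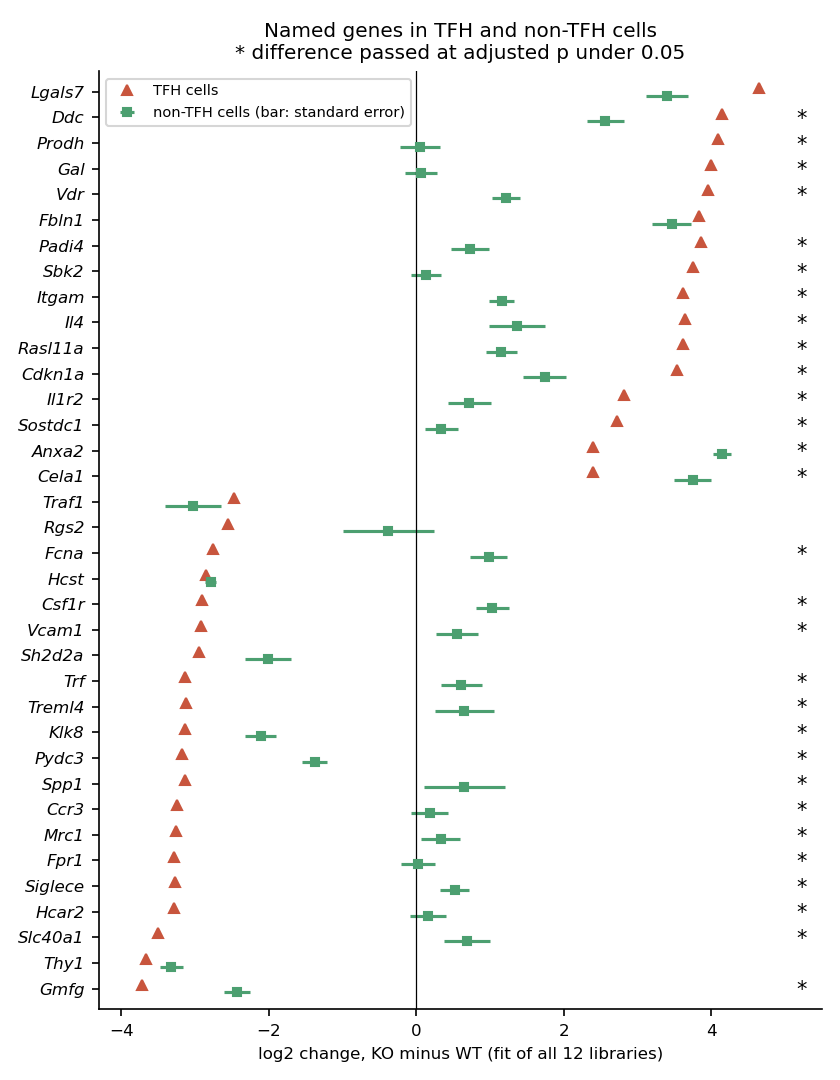
Log2 change between KO and WT of the 36 genes named for the largest changes, in TFH cells (triangles) and in non-TFH cells (squares, bars are standard errors), on the scale of log2(FPKM + 1) and from the fit of all 12 libraries. A star marks the 29 genes whose difference between the cell types passed at an adjusted p under 0.05. Most squares of falling genes lie near or above 0, and those of Hcst and Thy1 lie close to their triangles.

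Promoters of these genes were read to show what the GGAA core bound by ETS factors looks like in the genes that moved most. The windows run from 250 bases before to 50 after the start site (RefSeq, GRCm38.p6), and capitals mark each GGAA core on either strand (TTCC where it lies on the other strand). The first 4 are of genes that rose and the last 4 of genes that fell. The table held no window for Thy1, Slc40a1 or Hcar2.
Lgals7 (chr7:28864136-28864435, plus strand): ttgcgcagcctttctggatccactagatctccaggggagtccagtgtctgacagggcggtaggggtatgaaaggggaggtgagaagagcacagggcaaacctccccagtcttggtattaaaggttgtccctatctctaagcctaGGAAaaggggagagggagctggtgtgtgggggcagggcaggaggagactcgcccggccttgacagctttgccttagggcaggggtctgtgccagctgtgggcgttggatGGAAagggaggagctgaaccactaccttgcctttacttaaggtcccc
Ddc (chr11:11898095-11898394, minus strand): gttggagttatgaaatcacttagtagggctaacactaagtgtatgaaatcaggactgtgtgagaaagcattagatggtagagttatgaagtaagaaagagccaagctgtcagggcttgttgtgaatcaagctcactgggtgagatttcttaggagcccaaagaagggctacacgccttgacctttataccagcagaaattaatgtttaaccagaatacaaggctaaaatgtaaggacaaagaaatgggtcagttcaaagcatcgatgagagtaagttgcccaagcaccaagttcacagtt
Prodh (chr16:18089141-18089440, minus strand): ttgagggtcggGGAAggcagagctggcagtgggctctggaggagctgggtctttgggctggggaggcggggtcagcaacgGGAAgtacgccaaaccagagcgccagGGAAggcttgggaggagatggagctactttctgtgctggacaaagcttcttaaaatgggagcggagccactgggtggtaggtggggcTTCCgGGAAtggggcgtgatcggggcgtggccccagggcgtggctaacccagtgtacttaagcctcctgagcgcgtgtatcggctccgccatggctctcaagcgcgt
Gal (chr19:3414495-3414794, minus strand): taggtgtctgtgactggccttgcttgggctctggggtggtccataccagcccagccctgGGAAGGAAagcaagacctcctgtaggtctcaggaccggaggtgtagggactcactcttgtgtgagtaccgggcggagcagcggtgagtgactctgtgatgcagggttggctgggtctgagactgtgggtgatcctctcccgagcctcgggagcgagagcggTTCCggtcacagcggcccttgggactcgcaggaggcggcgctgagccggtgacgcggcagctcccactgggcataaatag
Gmfg (chr7:28437219-28437518, plus strand): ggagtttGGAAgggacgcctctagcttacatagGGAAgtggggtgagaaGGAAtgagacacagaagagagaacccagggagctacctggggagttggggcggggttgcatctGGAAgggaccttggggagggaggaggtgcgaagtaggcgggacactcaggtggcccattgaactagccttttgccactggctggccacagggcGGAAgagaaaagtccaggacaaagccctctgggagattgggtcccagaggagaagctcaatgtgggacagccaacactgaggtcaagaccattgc
Siglece (chr7:43660112-43660411, minus strand): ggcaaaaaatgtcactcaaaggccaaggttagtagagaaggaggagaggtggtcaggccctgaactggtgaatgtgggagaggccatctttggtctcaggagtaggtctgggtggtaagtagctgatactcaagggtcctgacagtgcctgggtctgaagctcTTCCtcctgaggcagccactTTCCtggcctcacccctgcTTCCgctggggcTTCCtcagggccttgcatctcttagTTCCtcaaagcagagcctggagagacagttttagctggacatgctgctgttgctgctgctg
Fpr1 (chr17:17883890-17884189, minus strand): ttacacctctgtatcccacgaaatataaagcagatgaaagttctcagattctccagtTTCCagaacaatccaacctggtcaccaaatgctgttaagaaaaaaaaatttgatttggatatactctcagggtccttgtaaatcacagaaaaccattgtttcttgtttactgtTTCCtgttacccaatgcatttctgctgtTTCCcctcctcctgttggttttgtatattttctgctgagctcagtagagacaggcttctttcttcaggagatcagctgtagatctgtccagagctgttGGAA
Mrc1 (chr2:14229164-14229463, plus strand): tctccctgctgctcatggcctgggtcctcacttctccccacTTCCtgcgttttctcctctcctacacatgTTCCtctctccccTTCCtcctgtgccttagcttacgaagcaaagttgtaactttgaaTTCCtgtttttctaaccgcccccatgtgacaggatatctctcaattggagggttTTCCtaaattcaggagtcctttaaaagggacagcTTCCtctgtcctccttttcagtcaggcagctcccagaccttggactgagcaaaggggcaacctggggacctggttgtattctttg

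The core occurred 2 times in the window of Lgals7, 0 times in the printed window of Ddc, 5 times in that of Prodh and 3 times in that of Gal. It occurred 5 times in Gmfg, 5 in Siglece, 4 in Fpr1 and 6 in Mrc1. For Ddc and Gmfg the table holds 2 windows each and the first is shown, and the other window of Ddc does hold the core. The window of Lgals7 lies 547 bases from the deposited start of the gene. So short a sequence is common, with a median of 3 per window in genes called higher, in genes called lower and in the whole table. Of the longer forms searched on both strands, CCGGAAGT was in 8.72% of 872 windows of genes called higher, in 3.23% of 1144 windows of genes called lower and in 9.56% of windows of genes not called, beside 3.89% of all 32841 windows in the table. CAGGAAGT, a form known from lymphoid genes, was in 2.87% of windows of genes called higher, 5.68% of those called lower, 3.55% of those not called and 3.33% of all. Among the printed windows it was found in Mrc1. The RUNX site TGTGGTTT was in 1.26% and 1.31% of windows of genes called higher and lower and in 1.78% of all. These shares describe letters in a window, were not tested, and do not show binding.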

How the data were processed

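The deposited values are FPKM per gene, which the authors made from stranded mRNA libraries. For trimming and quality checks the submitters' processing notes list cutadapt and FastQC, for alignment Bowtie, Bowtie2, TopHat and TopHat2, for quantification Cuffdiff and Cufflinks, and mm10 as the build. Their versions and settings: not given in the sources used here. The tables hold no counts. Depths were estimated from FPKM and the deposited confidence bounds of unnamed loci.

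Python 3.11.15, pandas 2.3.3 and numpy 2.4.6 were used to read the tables. Symbols that shared an entry in some libraries were summed into 585 joint features, beside 22978 with an entry of their own. A missing value stayed missing, and 24 symbols turned into dates were not named. FPKM was scaled by the median ratio over 8521 genes. Genes at 1 FPKM or more in at least 3 of the 6 TFH libraries were tested as log2(FPKM + 1), a scale that understates changes of low genes, with limma 3.58.1 in R 4.3.3 (variance trend, robust, 2 group means) and Benjamini-Hochberg adjustment at 0.05. The difference between TFH and non-TFH changes came from a fit of all 12 libraries, scaled together. The scripts were tested on simulated data.

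Genes were named by a rule: the 12 largest rises and falls among called genes with an entry of their own, above 0 in all 6 libraries and with no overlap of the groups, up to 10 more each way at 100 FPKM or more in the higher group, up to 6 each way listed at 0 in a whole group, and up to 4 called members each way of each list, with members that did not pass. Some results that the rule names are not reported here. Members and lists were chosen with earlier results of these data known. Plots were drawn with matplotlib 3.10.9.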

Additional observations from a re-analysis of the deposited data

Results flagged for a closer look

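Of the 36 genes named for the largest changes, 29 changed by different amounts in TFH and non-TFH cells, by a limma test of the difference itself in the fit of all 12 libraries (adjusted p under 0.05). The 36 were chosen for large TFH changes, which enter this difference, so the number that passed is largely set by the choice. Values below are the TFH change minus the non-TFH change, on the scale of log2(FPKM + 1). With a pseudocount of 0.1, chosen after seeing the data, 22 of the 29 passed in the same direction, and Ddc, Vdr, Il4, Rasl11a, Cdkn1a, Il1r2 and Sostdc1 did not.

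Among genes that rose in KO TFH cells, the difference was 4.04 for Prodh, 3.94 for Gal, 3.61 for Sbk2, 3.14 for Padi4 and 2.74 for Vdr. It was 2.47 for Rasl11a, 2.46 for Itgam, 2.38 for Sostdc1, 2.26 for Il4 and 2.09 for Il1r2. It was 1.79 for Cdkn1a and 1.59 for Ddc, and for these and Vdr the ratio of KO to WT means was larger in non-TFH cells. For Anxa2 (-1.75) and Cela1 (-1.36) the rise was larger in non-TFH cells.

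Among genes that fell in KO TFH cells, those known from myeloid cells differed by the most: Slc40a1 by -4.19, Csf1r by -3.93, Siglece and Spp1 by -3.79 each, Treml4 by -3.77, Trf by -3.75, Fcna by -3.73, Mrc1 by -3.59 and Vcam1 by -3.48. The difference was -3.44 for Hcar2, -3.42 for Ccr3 and -3.3 for Fpr1. It was -1.79 for Pydc3, -1.29 for Gmfg and -1.03 for Klk8. The part of macrophage RNA in these values was not tested.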

How the results depend on the processing

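All 36 named genes kept the direction and the call of their TFH change in each of the 18 alternatives in which they could be tested (pseudocounts, filters, scalings, model options, the replicate block, all 12 libraries and leaving out each library). They were chosen as large changes already called and without overlap, and the alternatives reuse the same libraries. Keeping their calls was therefore largely set by the choice. The number of called genes moved more. A fit of all 12 libraries called 3355 genes, 1746 of them higher, and in it Ets1 passed (log2 change 0.37, adjusted p = 0.013). Leaving out a library gave 1246 to 1616 called genes, with 458 to 787 higher and 752 to 923 lower. The lowest totals came without KO TFH replicate 3 (1246, with 458 higher and 788 lower) and KO TFH replicate 2 (1418, with 555 higher), and 752 and 789 genes were lower without WT TFH replicates 2 and 3. Fewer samples leave fewer degrees of freedom. The remaining settings gave 1667 to 2246 calls. Of called genes 44.8% were higher, against 50.8% without scaling, 52% with all 12 libraries and 36.8% without KO TFH replicate 3. Deviations of same-numbered WT and KO TFH libraries had r of 0.057, 0.04 and 0.012, and those of differently numbered libraries r of -0.087 to 0.048. With 3 libraries per group, such values cannot decide whether a number marks a shared litter or day. A fit with the replicate block called 1867 genes, 829 higher and 1038 lower. The difference between TFH and non-TFH changes was called in 1719 genes, in 1669 with a pseudocount of 0.1 and in 1275 with the replicate block within genotype, both chosen after seeing the data. Of 428 called list members, 206 kept their call under every alternative. Depth is only estimated, so no counting limit is given for genes at 0.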

Other observations

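Penk, the precursor of enkephalin peptides, was chosen after its values were seen and lies outside the rule for named genes. It stood at 50.7, 73.6 and 54.1 FPKM in WT and 347, 223 and 222 FPKM in KO TFH libraries (2.12, SE 0.21, adjusted p = 0.00032), a second neuropeptide gene beside Gal whose groups did not overlap.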
